A study of Homo sapiens with 18 samples.

Results

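The set described here holds 49 genes named as nucleolar ribosome biogenesis factors. They were chosen by name, with earlier results of these data known, and found in the deposited gene tables by their NCBI Gene ID. All 49 were listed, out of 21662 genes listed in any library, and all 49 had enough counts to be tested, among 14396 genes tested. They were divided by role into 18 factors of the small (40S) subunit and 17 factors of the large (60S) subunit. The rest were 8 proteins of small nucleolar ribonucleoproteins (snoRNPs) and 6 others, called other nucleolar proteins here. This last class includes PPRC1, a coactivator of the PGC-1 family. RNA had been sequenced from SNT-8, SNK-10 and SNT-16, 3 human cell lines labelled as wild type and established from lymphomas of natural killer or T cells. Each line was treated for 12 h with icaritin, a flavonoid that carries a prenyl group and comes from Epimedium herbs, or with DMSO, its solvent. Each of the 6 groups had 3 libraries, 18 in all. The dose is not given in the sources used here, nor is it stated whether replicates were separate cultures, so a p-value speaks only of the spread among the libraries, which may be technical.

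Ribosomes are assembled in the nucleolus, where RNA polymerase I transcribes a long precursor of the ribosomal RNAs. Box C/D and box H/ACA snoRNPs modify this precursor, guided by small nucleolar RNAs, and the U3 snoRNP and the UTP complexes form the small-subunit processome on it, from which the 40S precursor is cut free. A separate series of GTPases, helicases and scaffolds folds the 60S precursor. Many of these genes are known targets of the transcription factor MYC, and growing lymphoma cells depend on a high rate of ribosome production.

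Expected counts, the estimated fragments of each gene, summed to between 9526431 and 10100453 per library. The lines carried the NK and T cell markers of their label, and some genes of a myeloid marker list were also present. Of 14 NK and T cell marker genes, 13 reached 1 FPKM in both SNT lines (GNLY did not) and 14 in SNK-10, while the summed B cell markers lay between 0.6 and 2.3 FPKM over the groups. FPKM is the authors' unit of fragments scaled to transcript length and to library size. Of 9 myeloid marker genes, 4 reached 1 FPKM in each group. LYZ, CD68 and ITGAM did so in each line, CSF1R in both SNT lines and FCGR3A in SNK-10. In contrast, CD14, S100A8 and MPO lay at or near 0 in each group. The 9 genes summed to at most 24.5 FPKM in SNT-8, 33.0 FPKM in SNK-10 and 21.0 FPKM in SNT-16, each after icaritin. A list of plasma cell markers moved with treatment. Its sum was 141.7 to 194.1 FPKM after icaritin and 274.4 to 283.6 FPKM after DMSO in SNT-8, 102.1 to 109.6 FPKM after icaritin and 151.0 to 157.2 FPKM after DMSO in SNK-10, and 183.4 to 188.6 FPKM after icaritin and 299.2 to 309.8 FPKM after DMSO in SNT-16. This sum came from MZB1 and IRF4, the only 2 of its 5 genes at 1 FPKM or more, whereas JCHAIN, SDC1 and TNFRSF17 lay at or near 0. Summed fibroblast markers were 2.3 to 2.9 FPKM after icaritin and 0.8 to 1.0 FPKM after DMSO in SNT-8, 2.1 to 2.4 FPKM after icaritin and 1.6 to 2.1 FPKM after DMSO in SNK-10, and 1.7 to 1.9 FPKM after icaritin and 0.6 to 0.9 FPKM after DMSO in SNT-16. COL1A1 was the only 1 of these 5 genes to reach 1 FPKM, and DCN lay at or near 0. Among the NK and T cell markers, the transcription factor TBX21 averaged 12.7 FPKM after icaritin and 33.4 FPKM after DMSO in SNT-8, 9.47 FPKM after icaritin and 17.7 FPKM after DMSO in SNK-10, and 16.0 FPKM after icaritin and 37.0 FPKM after DMSO in SNT-16. Markers of this NK and T cell list moved in both directions. NCAM1, CD7, CD247 and GZMB averaged higher after icaritin in each line. CD2, CD3E, CD3D, PRF1, NKG7, IL2RB and EOMES averaged lower in each line, as TBX21 did. GNLY and KLRD1 differed in direction between lines. The part of all these markers in the results was not tested. The share of counts from RNR2, the mitochondrial 16S ribosomal RNA gene, also moved with treatment. It was 2.12% to 2.78% after icaritin and 1.19% to 1.33% after DMSO in SNT-8, 4.59% to 5.12% after icaritin and 1.5% to 1.55% after DMSO in SNK-10, and 1.65% to 1.77% after icaritin and 0.83% to 0.89% after DMSO in SNT-16. With the mitochondrial genes left out, 46, 45 and 46 of the 49 genes were lower in these lines, as many as with them.

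Nearly the whole set fell after icaritin. Because the set was chosen with earlier results of these data known, its counts beside the background are a description. In SNT-8, 46 of the 49 genes were lower after icaritin at an adjusted p under 0.05 (edgeR's quasi-likelihood test with Benjamini-Hochberg adjustment over all 14396 genes), against a background of 25.0% of all genes tested that were lower. In SNK-10, 45 were lower, against a background of 24.0%, and in SNT-16, 46 were lower, against 20.8%. In all 3 lines, 44 of the 49 genes were lower, where 14.3% of all tested genes were. The median log2 fold change of the 49 genes was -0.78 in SNT-8, -0.69 in SNK-10 and -0.67 in SNT-16, which put the median gene at 58.3%, 61.8% and 63.1% of its DMSO level in these lines. Over all genes tested, the medians were 0.02, 0.01 and 0.02. No gene of the 49 passed as higher in any line, where 24.0%, 24.4% and 21.2% of all tested genes did, and 0 did at an unadjusted p under 0.05 in edgeR; the adjusted count was 0 in each alternative as well. These are levels relative to the other RNA of a library, so fewer cells that hold a transcript and less of it per cell cannot be told apart.

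The icaritin libraries lay below the DMSO libraries without overlap for 45 of the 49 genes in SNT-8 (background 27.6%), 45 in SNK-10 (background 27.4%) and 47 in SNT-16 (background 26.1%), on library-scaled counts (CPM). A log2 fold change of -1 or less past the threshold was seen for 14 genes in SNT-8, 10 in SNK-10 and 8 in SNT-16. Among all tested genes, 2.29%, 2.47% and 1.56% fell that far in these lines. On the mean response over the 3 lines, 48 genes were lower (background 30.0% lower and 31.7% higher), and only the histone chaperone NPM3 did not pass.

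**Figure D1:**
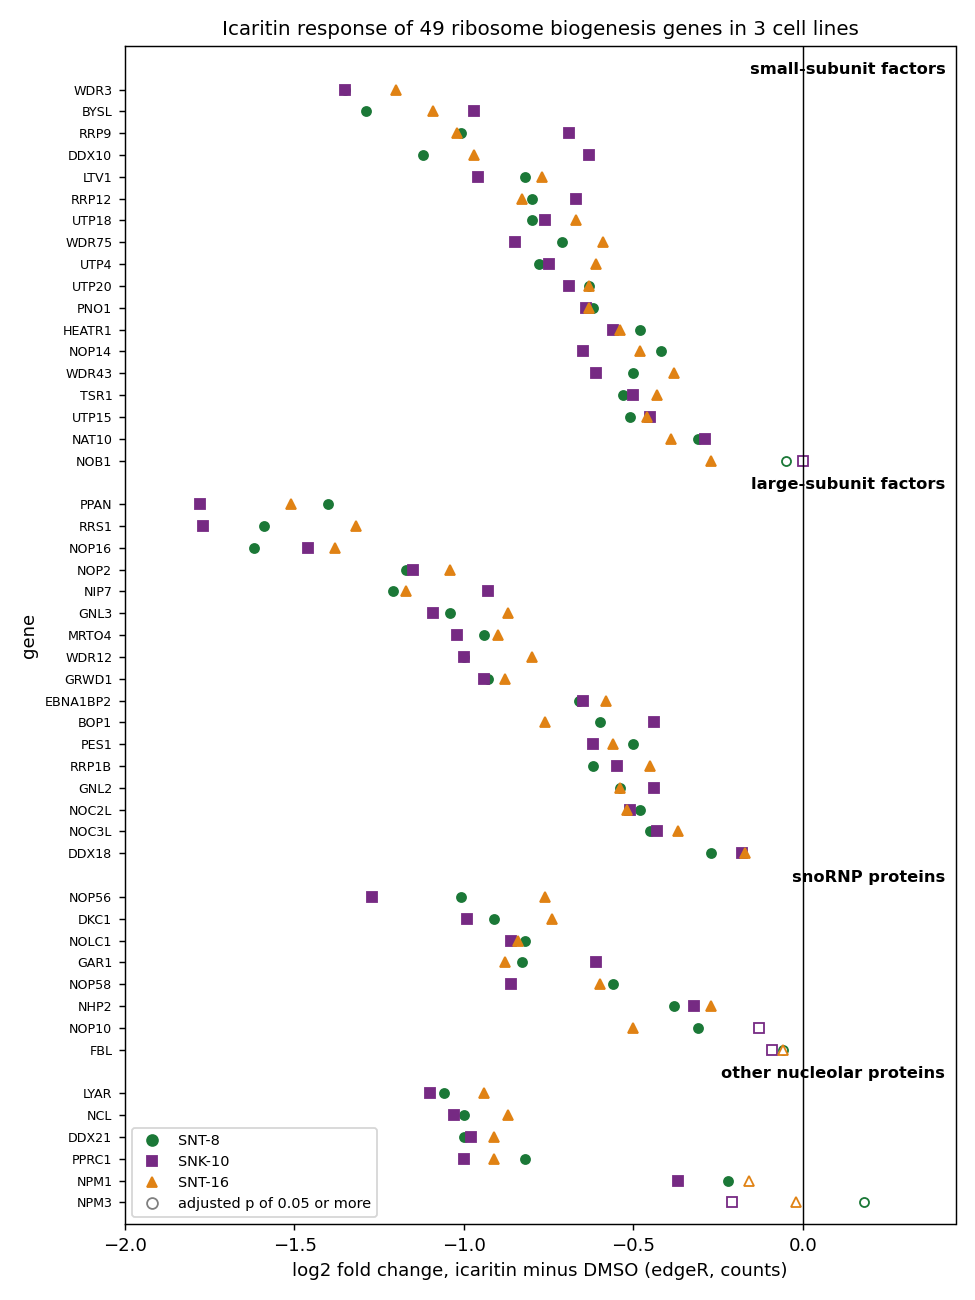
Log2 fold change of icaritin against DMSO (x axis) for each of the 49 genes (y axis, grouped by role and sorted by mean response) in SNT-8 (circles), SNK-10 (squares) and SNT-16 (triangles), with open symbols where the adjusted p was 0.05 or more. Most symbols lie left of 0 and the 3 lines lie close together for most genes, with FBL, NOB1, NPM1, NPM3 and NOP10 holding all open symbols.

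The 49 genes span a wide range of levels. Per length, the lowest gene of the set averaged 6.7, 5.6 and 6.4 FPKM in the icaritin groups of SNT-8, SNK-10 and SNT-16, against 9.7, 10.5 and 10.2 FPKM in their DMSO groups. The median gene stood at 26.5, 27.4 and 28.7 FPKM in these icaritin groups, against 40.7, 45.7 and 43.7 FPKM in the DMSO groups. Over all 18 libraries, NPM1, NCL and FBL were the most abundant, with means of 2076, 442 and 210 FPKM, and UTP15, UTP20 and PPAN the least, with 8.76, 11.6 and 12.2 FPKM. Across the 49 genes, the mean log2 fold change and the log2 DMSO level had a Pearson's r of 0.11 and a Spearman's rho of 0.03, a description over genes that share the same libraries.

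Of the small-subunit, large-subunit and snoRNP classes, the large-subunit factors had the lowest median in each line. All 17 were lower in each line, with a median log2 fold change of -0.93 in SNT-8, -0.93 in SNK-10 and -0.80 in SNT-16. Of the 18 small-subunit factors, 17 were lower in SNT-8 and SNK-10 and 18 in SNT-16, with medians of -0.67, -0.66 and -0.62. Of the 8 snoRNP proteins, 7, 6 and 7 were lower in SNT-8, SNK-10 and SNT-16, with medians of -0.69, -0.74 and -0.67. The 6 other nucleolar proteins had 5, 5 and 4 lower genes and medians of -0.91, -0.99 and -0.89. Of all genes tested, 25.0%, 24.0% and 20.8% were lower in SNT-8, SNK-10 and SNT-16, with medians of 0.02, 0.01 and 0.02. Set against the DMSO mean of its line, the large-subunit median was below the small-subunit median in 9 of 9 icaritin libraries and below the snoRNP median in 8 of 9. The snoRNP median was below the small-subunit median in 6 of 9, so the order of these 2 classes was not the same in every library. The classes were made by choice of genes, and the difference between them is given as a description without a test. Among the further genes of ribosome assembly given below, the order was the other way. Their small-subunit medians were -0.57, -0.55 and -0.54 in SNT-8, SNK-10 and SNT-16. Their large-subunit medians were -0.46, -0.40 and -0.38 in these lines.

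Summed over the class, large-subunit factors held 475.3 to 496.6 FPKM in icaritin libraries of SNT-8, against 831.0 to 850.4 FPKM in its DMSO libraries. The sums were 493.1 to 507.6 FPKM after icaritin and 886.5 to 909.8 FPKM after DMSO in SNK-10, and 479.5 to 492.8 FPKM after icaritin and 805.7 to 820.2 FPKM after DMSO in SNT-16. Small-subunit factors summed to 387.8 to 403.9 FPKM over all 9 icaritin libraries and to 578.6 to 628.5 FPKM over all 9 DMSO libraries. The snoRNP proteins summed to 566.2 to 696.4 FPKM over the icaritin libraries and 873.1 to 946.7 FPKM over the DMSO libraries. No icaritin library reached the lowest DMSO library of any of these 3 classes.

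**Figure D2:**
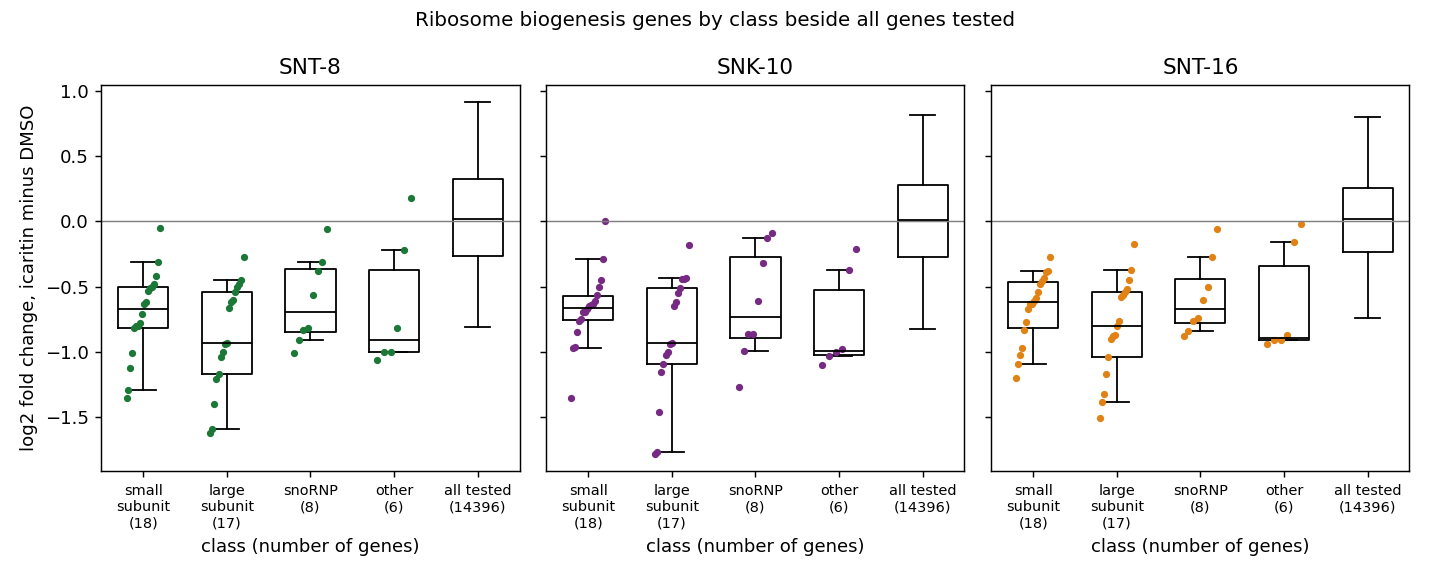
Log2 fold change of icaritin against DMSO (y axis) by class (x axis, number of genes in brackets) in each line. Each class has a point per gene and a box for the quartiles and median. Whiskers end at a low and a high percentile of the genes of a box, and genes of the full table beyond them are not drawn. The class medians lie between -0.62 and -0.99, and the medians of all 14396 genes between 0.01 and 0.02.

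WDR3, which had the lowest mean response of the small-subunit factors, is the human counterpart of yeast Utp12 in the UTP-B part of the processome. It stood at 12, 10.4 and 11.3 FPKM in icaritin libraries of SNT-8, against 27.2, 28.3 and 27.8 FPKM in its DMSO libraries. It stood at 10.1, 10.3 and 11 FPKM in icaritin libraries of SNK-10, against 26.4, 27.7 and 28.0 FPKM in its DMSO libraries. In SNT-16 it stood at 11.6, 11.7 and 10.9 FPKM after icaritin and 26.5, 25.3 and 25.3 FPKM after DMSO. All 9 icaritin libraries lay far below all 9 DMSO libraries, and the mean log2 fold change over the lines was -1.30 (SE 0.0343, adjusted p = 4.13e-29). UTP18, its partner in UTP-B, was at -0.80 in SNT-8, -0.76 in SNK-10 and -0.67 in SNT-16, past the threshold in each line.

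The 5 UTP-A proteins, which in yeast join the precursor RNA first, were lower in each line, with log2 fold changes from -0.48 to -0.78 in SNT-8, from -0.45 to -0.85 in SNK-10 and from -0.38 to -0.61 in SNT-16. WDR75, one of them, stood at 34.3, 31.0 and 30.7 FPKM in icaritin libraries of SNT-8, against 49.8, 50.6 and 52.3 FPKM in its DMSO libraries. It stood at 25.9, 25.9 and 25.4 FPKM in icaritin libraries of SNK-10, against 46.6, 48.8 and 46.9 FPKM in its DMSO libraries. In SNT-16 it stood at 38, 37.5 and 33.9 FPKM after icaritin and 54.2, 54.0 and 54.3 FPKM after DMSO. WDR75 was lower without overlap in each line, with a mean log2 fold change of -0.72 (SE 0.0301, adjusted p = 1.09e-22). UTP15, which had the lowest level of all 49 genes, was at 7.1, 7.5 and 6.5 FPKM in icaritin libraries of SNT-8, against 9.7, 9.3 and 9.9 FPKM in DMSO libraries. The same gene stood at 7.6, 7.4 and 7.6 FPKM after icaritin and 10.1, 10.9 and 10.5 FPKM after DMSO in SNK-10, and at 7.8, 8.0 and 7.0 FPKM after icaritin and 10.2, 10.2 and 10.3 FPKM after DMSO in SNT-16. Even at this level the groups did not overlap, and the mean log2 fold change was -0.47 (SE 0.0398, adjusted p = 2.34e-13). UTP4, HEATR1 and WDR43 make up the rest of the group, at -0.71, -0.53 and -0.50 on the mean response.

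Factors that act with U3 and later in the processome were lower too. RRP9, a protein of the U3 snoRNP, stood at 18.8, 19.1 and 21.9 FPKM in icaritin libraries of SNT-8, against 37.6, 37.2 and 41.8 FPKM in its DMSO libraries. It stood at 24.8, 26.0 and 21.3 FPKM in icaritin libraries of SNK-10, against 40.0, 39.0 and 40.2 FPKM in its DMSO libraries, and at 17.8, 18.1 and 19.6 FPKM after icaritin and 37.7, 35.0 and 38.1 FPKM after DMSO in SNT-16. DDX10, an RNA helicase whose yeast counterpart Dbp4 works in the processome, stood at 9.5, 9.4 and 8.8 FPKM in icaritin libraries of SNT-8, against 19.1, 19.2 and 20.0 FPKM in its DMSO libraries. Its SNK-10 libraries were at 11.2, 12.1 and 12.9 FPKM after icaritin and 19.4, 19.6 and 18.5 FPKM after DMSO, and those of SNT-16 at 9.5, 10.4 and 10 FPKM after icaritin and 19.8, 18.2 and 19.8 FPKM after DMSO. DDX10 held 18.2 to 20.0 FPKM over all 9 DMSO libraries, and its icaritin libraries were highest in SNK-10. The mean response, as log2 fold change, came to -0.91 (SE 0.0414, adjusted p = 1.70e-21) for RRP9 and -0.91 (SE 0.04, adjusted p = 5.83e-22) for DDX10. NOP14, UTP20 and NAT10, the acetyltransferase of ribosomal RNA, were at -0.52, -0.65 and -0.33 on the mean response and past the threshold in each line. UTP20, among the weakest genes of the set, held 8.7 to 9.6 FPKM over the 9 icaritin libraries and 12.7 to 15.6 FPKM over the 9 DMSO libraries.

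Of the 6 factors that mature the 40S precursor late, 5 were lower in SNT-8 and in SNK-10 and 6 in SNT-16. BYSL, the counterpart of yeast Enp1, stood at 11.1, 10.7 and 11.7 FPKM in icaritin libraries of SNT-8, against 26.2, 27.7 and 25.3 FPKM in its DMSO libraries. It stood at 15.3, 12.8 and 14.7 FPKM in icaritin libraries of SNK-10, against 27.0, 31.3 and 27.3 FPKM in its DMSO libraries, and at 12.5, 11.9 and 13.7 FPKM after icaritin and 25.9, 26.5 and 27.4 FPKM after DMSO in SNT-16. All 9 icaritin libraries lay below all 9 DMSO libraries, with a mean log2 fold change of -1.12 (SE 0.0453, adjusted p = 3.91e-23). LTV1, PNO1, TSR1 and RRP12 were at -0.85, -0.63, -0.49 and -0.77 on the mean response.

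NOB1, the endonuclease that makes the final cut at the end of 18S ribosomal RNA, moved least of the small-subunit factors. It stood at 52.8, 58.0 and 57.6 FPKM in icaritin libraries of SNT-8, against 58.8, 56.7 and 53.0 FPKM in its DMSO libraries. In SNK-10 it stood at 53.8, 53.2 and 52.8 FPKM after icaritin and 54.9, 55.3 and 53.5 FPKM after DMSO, and in SNT-16 at 45.9, 51.4 and 51.7 FPKM after icaritin and 59.4, 59.2 and 58.7 FPKM after DMSO. On CPM the groups overlapped in SNT-8, where NOB1 was at 96.7% of its DMSO level (adjusted p = 0.509), and in SNK-10, where it was at 99.7% (adjusted p = 0.964). In SNT-16 it fell, with -0.27 (SE 0.057, adjusted p = 1.27e-04).

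Among the large-subunit factors, NOP16, PPAN and RRS1 fell furthest. NOP16, a nucleolar protein of the early 60S precursor, stood at 28.4, 22.7 and 26.2 FPKM in icaritin libraries of SNT-8, against 78.0, 76.0 and 76.1 FPKM in its DMSO libraries. It stood at 24.0, 22.8 and 21.5 FPKM in icaritin libraries of SNK-10, against 61.0, 66.2 and 66.2 FPKM in its DMSO libraries. In SNT-16 it stood at 25.9, 27.0 and 24.2 FPKM after icaritin and 64.5, 63.7 and 69.0 FPKM after DMSO. Its level after icaritin was 32.6% of the DMSO level in SNT-8, 36.3% in SNK-10 and 38.4% in SNT-16, and the mean log2 fold change was -1.49 (SE 0.039, adjusted p = 3.66e-29).

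RRS1, whose yeast counterpart helps to bring the 5S ribonucleoprotein into the 60S precursor, stood at 14.9, 12.2 and 13.5 FPKM in icaritin libraries of SNT-8, against 38.8, 37.5 and 42.1 FPKM in its DMSO libraries. It stood at 11.5, 12.1 and 15.7 FPKM in icaritin libraries of SNK-10, against 43.6, 47.5 and 46.0 FPKM in its DMSO libraries, and at 13.8, 13.7 and 14 FPKM after icaritin and 34.7, 31.3 and 35.6 FPKM after DMSO in SNT-16. The mean log2 fold change was -1.56 (SE 0.0499, adjusted p = 1.92e-25). PPAN, the counterpart of yeast Ssf1, stood at 7.1, 6.5 and 6.3 FPKM in icaritin libraries of SNT-8, against 17.4, 17.1 and 16.8 FPKM in its DMSO libraries. It stood at 4.8, 7.2 and 4.9 FPKM in icaritin libraries of SNK-10, against 18.8, 21.1 and 19.0 FPKM in its DMSO libraries, and at 5.6, 8.2 and 5.3 FPKM after icaritin and 17.2, 19.5 and 16.6 FPKM after DMSO in SNT-16. Its mean log2 fold change was -1.56 (SE 0.0733, adjusted p = 3.71e-15). The read-through gene PPAN-P2RY11 shares the exons of PPAN and held more counts, with a mean of 39.1 CPM against 29.9 CPM for PPAN, so how their reads were divided is uncertain. PPAN-P2RY11 was itself lower, with a log2 fold change of -0.79 in SNT-8, -0.90 in SNK-10 and -0.72 in SNT-16 (adjusted p = 1.07e-08, 5.57e-10 and 8.83e-08). Both genes together held 37.0 to 47.4 CPM over the 9 icaritin libraries and 85.0 to 106.4 CPM over the 9 DMSO libraries, with no overlap.

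GNL3, the GTPase nucleostemin, stood at 62.5, 64.1 and 57.1 FPKM in icaritin libraries of SNT-8, against 121.8, 124.8 and 120.0 FPKM in its DMSO libraries. It stood at 53.8, 52.8 and 55.8 FPKM in icaritin libraries of SNK-10, against 117.2, 119.9 and 117.6 FPKM in its DMSO libraries, and at 63.0, 65.3 and 62.8 FPKM after icaritin and 119.2, 107.3 and 116.7 FPKM after DMSO in SNT-16. No library of one group reached the other, and the mean response was -1.0 (SE 0.03, adjusted p = 2.98e-27) on the log2 scale. NOP2, the cytosine methyltransferase of 28S ribosomal RNA, and NIP7, which acts in processing of the precursor RNA, were at -1.12 and -1.10 on the mean response. MRTO4, whose yeast counterpart holds the place of a stalk protein on the 60S precursor, and GRWD1, a chaperone of a ribosomal protein, were at -0.96 and -0.92. EBNA1BP2, RRP1B, GNL2, NOC2L and NOC3L were at -0.63, -0.54, -0.51, -0.50 and -0.42 on the mean response. DDX18, an RNA helicase, moved least of the large-subunit factors, with -0.27 in SNT-8, -0.18 in SNK-10 and -0.17 in SNT-16. DDX18 passed with adjusted p-values of 6.42e-05, 0.00572 and 0.00888 in these lines. Its call in SNK-10 was lost without SNK-10 DMSO replicate 1 (adjusted p = 0.0518) or icaritin replicate 1 (adjusted p = 0.0609), and its call in SNT-16 without SNT-16 icaritin replicate 3 (adjusted p = 0.0531).

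The PeBoW complex of PES1, BOP1 and WDR12 is needed for processing towards 28S and 5.8S ribosomal RNA, and its 3 genes were lower in each line. WDR12 was at -1.0 in SNT-8, -1.0 in SNK-10 and -0.80 in SNT-16 and PES1 at -0.50 in SNT-8, -0.62 in SNK-10 and -0.56 in SNT-16. BOP1 stood at 33.2, 32.8 and 37.8 FPKM in icaritin libraries of SNT-8, against 48.2, 52.5 and 51.1 FPKM in its DMSO libraries. Its SNK-10 libraries were at 53.2, 56.7 and 48.8 FPKM after icaritin and 69.2, 72.2 and 78.5 FPKM after DMSO, and those of SNT-16 at 30.2, 31.3 and 30.7 FPKM after icaritin and 49.8, 53.5 and 50 FPKM after DMSO. SNK-10 held the most BOP1 under both treatments, and its icaritin libraries overlapped the DMSO libraries of both SNT lines.

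The snoRNP proteins differed in the size of their response within the same particles. The box C/D particle holds FBL (fibrillarin), which methylates ribose, and the paired scaffolds NOP56 and NOP58. NOP56 stood at 96.8, 81.5 and 87.3 FPKM in icaritin libraries of SNT-8, against 170.9, 177.6 and 174.2 FPKM in its DMSO libraries. It stood at 79.2, 75.2 and 80.8 FPKM in icaritin libraries of SNK-10, against 191.8, 195.5 and 197.7 FPKM in its DMSO libraries. In SNT-16 it stood at 109.0, 112.9 and 109.6 FPKM after icaritin and 182.5, 181.7 and 193.5 FPKM after DMSO. The mean log2 fold change of NOP56 was -1.01 (SE 0.0284, adjusted p = 2.86e-28), the largest fall among the snoRNP proteins.

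NOP58 stood at 59.7, 61.8 and 51.8 FPKM in icaritin libraries of SNT-8, against 79.6, 82.8 and 85.2 FPKM in its DMSO libraries. It stood at 54.7, 58.1 and 59.0 FPKM in icaritin libraries of SNK-10, against 108.7, 106.3 and 104.9 FPKM in its DMSO libraries, and at 65.5, 63.2 and 61.8 FPKM after icaritin and 97.1, 91.7 and 95.8 FPKM after DMSO in SNT-16. NOP58 was lower without overlap in each line, with -0.68 (SE 0.0318, adjusted p = 4.48e-21) on the mean response. FBL stood at 211.6, 218.1 and 210.8 FPKM in icaritin libraries of SNT-8, against 212.0, 232.2 and 202.4 FPKM in its DMSO libraries. Its SNK-10 libraries were at 181.8, 178.5 and 182.0 FPKM after icaritin and 199.9, 188.6 and 202.7 FPKM after DMSO, and those of SNT-16 at 220.7, 220.0 and 231.4 FPKM after icaritin and 222.8, 235.5 and 229.1 FPKM after DMSO. On CPM, the FBL groups overlapped in each line, and its log2 fold changes of -0.06 in SNT-8, -0.09 in SNK-10 and -0.06 in SNT-16 did not pass (adjusted p = 0.323, 0.132 and 0.383). On the mean response FBL passed narrowly with -0.07 (SE 0.0284, adjusted p = 0.0331), a call that was lost with limma on FPKM (adjusted p = 0.0639 and 0.0652 with a pseudocount of 1 and 0.1) and without any 1 of 11 libraries (adjusted p up to 0.127). These were SNT-8 DMSO replicate 2, SNT-8 icaritin replicates 1 and 3, SNK-10 DMSO replicates 1 and 3, SNK-10 icaritin replicates 1 and 2, SNT-16 DMSO replicates 2 and 3 and SNT-16 icaritin replicates 1 and 2. The same limma fits called FBL lower in SNK-10, with -0.123 (adjusted p = 0.0275) and -0.124 (adjusted p = 0.0282).

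Within a library, the ratio of FBL to NOP56 on FPKM differed between the treatments. It was 2.19 to 2.68 in icaritin libraries and 1.16 to 1.31 in DMSO libraries of SNT-8. In SNK-10 it was 2.25 to 2.37 after icaritin and 0.96 to 1.04 after DMSO, and in SNT-16 it was 1.95 to 2.11 after icaritin and 1.18 to 1.30 after DMSO. The ratio of NOP58 to NOP56 was 0.59 to 0.76 after icaritin and 0.47 to 0.49 after DMSO in SNT-8. It was 0.69 to 0.77 after icaritin and 0.53 to 0.57 after DMSO in SNK-10, and 0.56 to 0.60 after icaritin and 0.50 to 0.53 after DMSO in SNT-16. Both ratios were higher in each icaritin library than in any DMSO library of the same line, which shows unequal change of RNAs whose proteins share a particle.

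The box H/ACA particle holds DKC1 (dyskerin), the pseudouridine synthase, with NHP2, NOP10 and GAR1. DKC1 stood at 41.5, 38.6 and 36.3 FPKM in icaritin libraries of SNT-8, against 70.5, 68.4 and 76.3 FPKM in its DMSO libraries. It stood at 34.6, 35.7 and 35.4 FPKM in icaritin libraries of SNK-10, against 74.0, 74.7 and 69.5 FPKM in its DMSO libraries, and at 36.9, 38.5 and 39.1 FPKM after icaritin and 61.9, 63.2 and 64.2 FPKM after DMSO in SNT-16. DKC1 was lower without overlap in each line, with -0.88 (SE 0.0312, adjusted p = 5.73e-25) on the mean response. GAR1 was at -0.83 in SNT-8, -0.61 in SNK-10 and -0.88 in SNT-16, and NHP2 at -0.38 in SNT-8, -0.32 in SNK-10 and -0.27 in SNT-16, all past the threshold. NOP10 stood at 47.4, 57.0 and 64.9 FPKM in icaritin libraries of SNT-8, against 69.8, 73.4 and 59.3 FPKM in its DMSO libraries. Its SNK-10 libraries were at 64.2, 70.5 and 59.7 FPKM after icaritin and 68.8, 74.2 and 74.0 FPKM after DMSO, and those of SNT-16 at 57.0, 57.1 and 53.5 FPKM after icaritin and 72.1, 83.8 and 76.7 FPKM after DMSO. NOP10 groups overlapped in SNT-8 and SNK-10 and not in SNT-16, where it fell with -0.50 (SE 0.0887, adjusted p = 1.34e-05). It passed in SNT-8 with -0.31 (SE 0.0899, adjusted p = 0.00458), a call lost without SNT-8 icaritin replicate 1 (adjusted p = 0.0834), and did not pass in SNK-10 (-0.13, adjusted p = 0.248). The ratio of NHP2 to DKC1 was 2.55 to 3.16 after icaritin and 1.84 to 1.97 after DMSO in SNT-8, 2.25 to 2.35 after icaritin and 1.39 to 1.46 after DMSO in SNK-10, and 2.98 to 3.10 after icaritin and 2.12 to 2.32 after DMSO in SNT-16.

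NOLC1, a chaperone of snoRNPs that shuttles between the nucleolus and Cajal bodies, moved alike in each line. It stood at 66.9, 67.8 and 61.1 FPKM in icaritin libraries of SNT-8, against 110.2, 113.3 and 111.3 FPKM in its DMSO libraries. It stood at 58.4, 59.1 and 59.5 FPKM in icaritin libraries of SNK-10, against 112.7, 102.4 and 113.3 FPKM in its DMSO libraries, and at 64.1, 61.8 and 62.0 FPKM after icaritin and 110.1, 107.5 and 113.6 FPKM after DMSO in SNT-16. The log2 fold changes of -0.82 in SNT-8, -0.86 in SNK-10 and -0.84 in SNT-16 lay close together, with -0.84 (SE 0.0277, adjusted p = 6.24e-26) on the mean response.

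**Figure D3:**
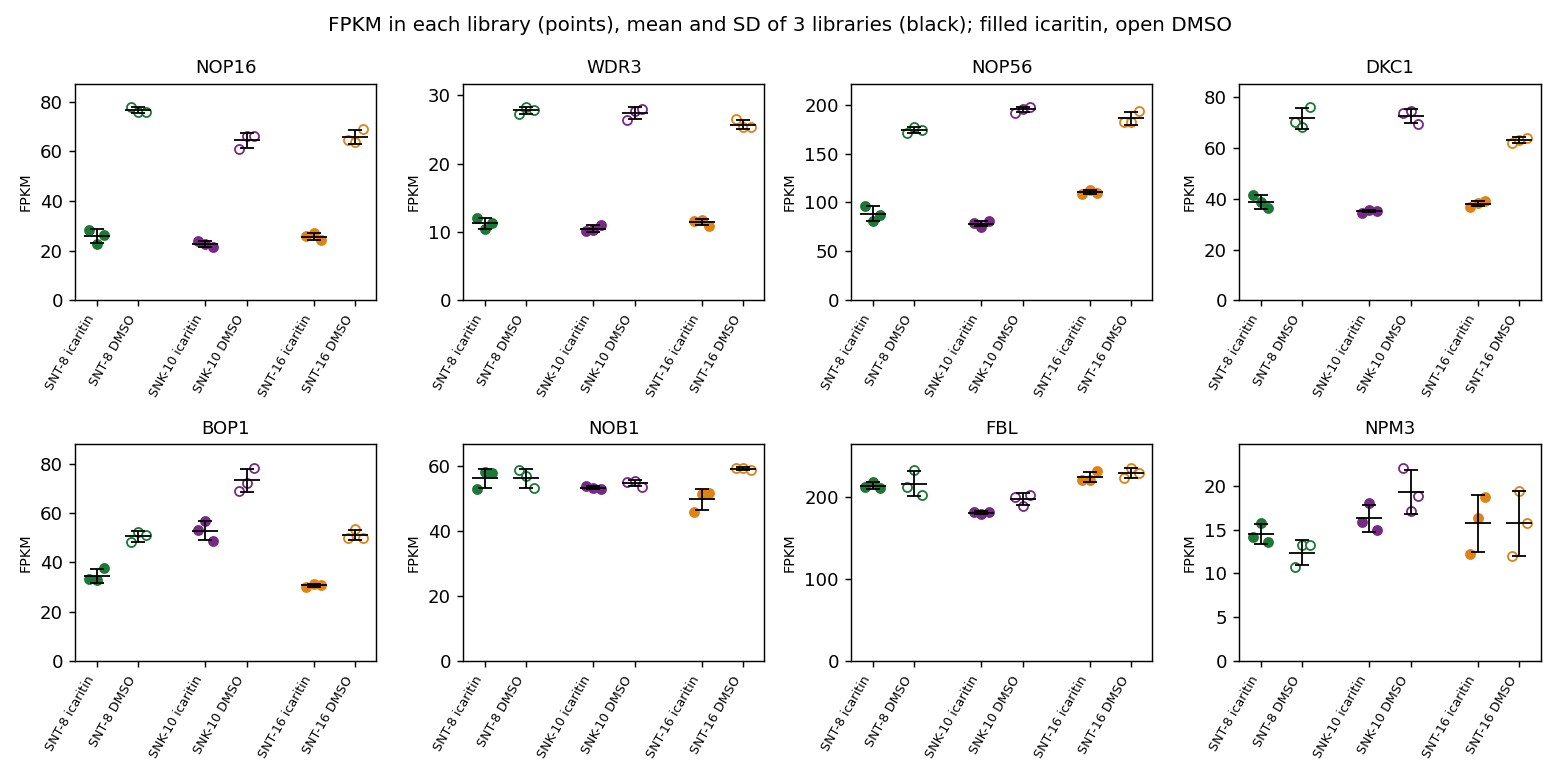
FPKM (y axis, from 0) of 8 of the 49 genes in each of the 18 libraries, by line with icaritin (filled) left of DMSO (open); black bars give the mean and SD of 3 libraries. NOP16, WDR3, NOP56, DKC1 and BOP1 show icaritin libraries below the DMSO libraries of their line, while NOB1 in SNT-8 and SNK-10, FBL in SNT-8 and SNT-16, and NPM3 in SNK-10 and SNT-16 show overlapping groups.

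The other nucleolar proteins held both strong falls and the most abundant RNA of the set. NCL (nucleolin), a major RNA-binding protein of the nucleolus, stood at 335.3, 308.0 and 283.3 FPKM in icaritin libraries of SNT-8, against 556.6, 594.7 and 646.7 FPKM in its DMSO libraries. It stood at 267.0, 281.1 and 302.5 FPKM in icaritin libraries of SNK-10, against 580.4, 584.9 and 611.8 FPKM in its DMSO libraries, and at 305.6, 314.3 and 311.5 FPKM after icaritin and 550.2, 525.0 and 598.5 FPKM after DMSO in SNT-16. The mean log2 fold change of NCL was -0.97 (SE 0.0388, adjusted p = 1.37e-15). DDX21, a helicase that acts in polymerase I transcription and ribosomal RNA processing, stood at 56.8, 59.2 and 52.1 FPKM in icaritin libraries of SNT-8, against 106.0, 107.3 and 111.8 FPKM in its DMSO libraries. Its SNK-10 libraries were at 56.5, 59.1 and 65.4 FPKM after icaritin and 124.0, 122.4 and 118.6 FPKM after DMSO, and those of SNT-16 at 55.5, 60.9 and 57.8 FPKM after icaritin and 109.6, 104.1 and 108.8 FPKM after DMSO. DDX21 had a mean log2 fold change of -0.96 (SE 0.0327, adjusted p = 6.30e-23).

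PPRC1, a coactivator of the PGC-1 family, stood at 19.4, 17.2 and 19.6 FPKM in icaritin libraries of SNT-8, against 31.8, 33.3 and 30.8 FPKM in its DMSO libraries. It stood at 19.9, 18.9 and 17.3 FPKM in icaritin libraries of SNK-10, against 38.3, 37.4 and 38.3 FPKM in its DMSO libraries, and at 18.9, 18.7 and 18.6 FPKM after icaritin and 33.9, 35.4 and 34.6 FPKM after DMSO in SNT-16. Its mean log2 fold change was -0.91 (SE 0.0288, adjusted p = 1.80e-26). LYAR, a nucleolar zinc finger protein, was at -1.06 in SNT-8, -1.10 in SNK-10 and -0.94 in SNT-16, past the threshold in each line.

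NPM1 (nucleophosmin), an abundant histone and ribosome chaperone, had smaller log2 fold changes than NCL. It stood at 2243, 2490 and 1980 FPKM in icaritin libraries of SNT-8, against 2517, 2500 and 2570 FPKM in its DMSO libraries. It stood at 1224, 1267 and 1390 FPKM in icaritin libraries of SNK-10, against 1716, 1680 and 1742 FPKM in its DMSO libraries, and at 2196, 2302 and 2190 FPKM after icaritin and 2391, 2419 and 2546 FPKM after DMSO in SNT-16. Its icaritin libraries lay below the DMSO libraries of each line, with log2 fold changes of -0.22 (SE 0.0704, adjusted p = 0.0125) in SNT-8, -0.37 (SE 0.0709, adjusted p = 2.23e-04) in SNK-10 and -0.16 (SE 0.0704, adjusted p = 0.0805) in SNT-16. The value in SNT-16 missed the threshold, and it passed without SNT-8 icaritin replicate 2 (adjusted p = 0.00895), without SNT-8 icaritin replicate 3 (adjusted p = 0.00802), without SNK-10 icaritin replicate 3 (adjusted p = 0.0441), without the filter on low counts (adjusted p = 1.26e-04), with a stricter filter (adjusted p = 0.0457) and in a fit of SNT-16 alone (adjusted p = 3.01e-05). NPM1 has processed copies elsewhere in the genome, so its counts may be split with them. NPM3 stood at 14.2, 15.8 and 13.6 FPKM in icaritin libraries of SNT-8, against 10.7, 13.2 and 13.2 FPKM in its DMSO libraries. Its SNK-10 libraries were at 15.9, 18 and 15 FPKM after icaritin and 22.1, 17.1 and 18.8 FPKM after DMSO, and those of SNT-16 at 12.2, 16.3 and 18.7 FPKM after icaritin and 12, 19.4 and 15.8 FPKM after DMSO. Its groups overlapped on CPM in each line, and its log2 fold changes of 0.18 in SNT-8, -0.21 in SNK-10 and -0.02 in SNT-16 did not pass (adjusted p = 0.364, 0.259 and 0.926).

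The size of the response differed between lines for some of the genes. Of the 49 genes, 9 (18.4%) passed the interaction test over the 3 lines, against a background of 14.3% of all genes tested, so the share was near the background. By class these were 3 of 8 snoRNP proteins, 4 of 18 small-subunit factors, 2 of 17 large-subunit factors and 0 of 6 other nucleolar proteins. In direct comparison, 5 genes differed in their response in SNK-10 from that in SNT-8 (background 10.8%) and 11 in SNK-10 from SNT-16 (background 12.5%). The first count was 3 without SNT-8 icaritin replicate 1, SNK-10 DMSO replicate 1 or SNK-10 DMSO replicate 3. The second lay between 5 and 7 without any of SNK-10 DMSO replicates 1 to 3, SNK-10 icaritin replicates 1 and 2 or SNT-16 icaritin replicates 1 and 2. Between SNT-8 and SNT-16, 0 genes differed in edgeR's test (background 0.438%), 8 had an unadjusted p under 0.05, where 14% of all genes had, and DESeq2 called 1, against 115 of all 14396 genes.

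NOP56 and NOP58 fell further in SNK-10 than in both SNT lines. NOP56 was at -1.27 in SNK-10, against -1.01 in SNT-8 and -0.76 in SNT-16. The difference was -0.25 (SE 0.0696, adjusted p = 0.0133) for SNK-10 minus SNT-8 and -0.51 (SE 0.0691, adjusted p = 1.60e-06) for SNK-10 minus SNT-16, with an interaction p of 5.40e-06 adjusted over all genes by edgeR. NOP58 differed by -0.30 (SE 0.0781, adjusted p = 0.00739) from SNT-8 and by -0.26 (SE 0.0775, adjusted p = 0.0212) from SNT-16. NOP14 fell further in SNK-10 than in SNT-8, with a difference of -0.23 (SE 0.0756, adjusted p = 0.042), but its interaction test did not pass (adjusted p = 0.0689).

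DDX10 and RRP9 fell less in SNK-10 than in both SNT lines. DDX10 differed by 0.48 (SE 0.0984, adjusted p = 7.37e-04) from SNT-8 and by 0.34 (SE 0.0979, adjusted p = 0.0184) from SNT-16. RRP9 differed by 0.32 (SE 0.101, adjusted p = 0.035) from SNT-8 and by 0.33 (SE 0.102, adjusted p = 0.0277) from SNT-16. The remaining differences were between SNK-10 and SNT-16. RRS1, DKC1, WDR75 and GNL3 fell further in SNK-10, with differences of -0.45, -0.25, -0.25 and -0.23 (adjusted p = 0.0131, 0.0234, 0.018 and 0.0369). BOP1, NOB1 and NOP10 had the higher log2 fold change in SNK-10, by 0.32, 0.27 and 0.37 (adjusted p = 0.00555, 0.022 and 0.0441). The interaction test of GNL3 and NOP10 did not pass (adjusted p = 0.0645 and 0.0983).

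The lines were also compared without icaritin. In DMSO libraries, 25 of the 49 genes differed between SNT-8 and SNK-10, 20 lower (background 29.9%) and 5 higher (background 27.8%) in SNT-8, against a background of 57.6% in either direction. Between SNT-16 and SNK-10, 26 differed, 21 lower (background 30.1%) and 5 higher (background 27.7%) in SNT-16, against 57.8% in either direction. The 2 SNT lines differed for 6 genes (background 13.2%), and for 2 genes without SNT-8 DMSO replicate 3 or SNT-16 DMSO replicate 2. Against SNK-10, the shares that differed in either direction, 51.0% and 53.1%, were a little under the background. By direction the calls were uneven, with more genes lower than higher in both SNT lines. Over all genes tested, the lower and higher shares were near each other. NOP14, a core protein of the processome, differed most. It was at 25.4, 24.0 and 26.3 FPKM in DMSO libraries of SNT-8 and 24.4, 23.9 and 23.1 FPKM in those of SNT-16, against 42.9, 44.8 and 45.2 FPKM in SNK-10. The log2 difference was -0.82 (SE 0.0516, adjusted p = 4.24e-17) for SNT-8 minus SNK-10 and -0.95 (SE 0.052, adjusted p = 5.19e-19) for SNT-16 minus SNK-10.

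NOP14 kept this order after icaritin, at 19.6, 20.4 and 18.3 FPKM in SNT-8 and 17.6, 17.7 and 16.6 FPKM in SNT-16, against 27.2, 27.9 and 27.1 FPKM in SNK-10. BOP1 in DMSO libraries was lower in both SNT lines, with -0.54 (SE 0.0543, adjusted p = 2.42e-11) for SNT-8 minus SNK-10 and -0.58 (SE 0.0544, adjusted p = 5.61e-12) for SNT-16 minus SNK-10. LTV1, a factor of the late 40S precursor, was higher in both SNT lines. It was at 34.3, 34.6 and 36.0 FPKM in DMSO libraries of SNT-8 and 31.7, 32.7 and 34.2 FPKM in those of SNT-16, against 23.5, 23.2 and 22.2 FPKM in SNK-10. After icaritin it was at 21.2, 21.9 and 17.4 FPKM in SNT-8 and 19.4, 20.0 and 19.2 FPKM in SNT-16, against 10.8, 11.4 and 12.2 FPKM in SNK-10. NPM1 was likewise higher in DMSO libraries of the SNT lines than in SNK-10, by 0.56 (SE 0.0707, adjusted p = 9.24e-07) in SNT-8 and 0.46 (SE 0.0707, adjusted p = 1.22e-05) in SNT-16. The comparisons of DMSO levels and of responses share their DMSO libraries.

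Most of the genes around the 49 were lower too. Like the 49, these further genes were chosen with earlier results of these data known, so their counts are a description. Of 114 further tested genes of ribosome assembly, 94 were lower and 5 higher in SNT-8, 93 and 4 in SNK-10, and 89 and 7 in SNT-16, with medians of -0.46, -0.45 and -0.40. Over all genes tested, 25.0%, 24.0% and 20.8% were lower and 24.0%, 24.4% and 21.2% higher in SNT-8, SNK-10 and SNT-16. On the mean response 39 of 43 further small-subunit factors, 40 of 47 large-subunit factors, 9 of 10 snoRNP assembly factors and 12 of 14 exosome genes were lower, with medians of -0.53, -0.42, -0.34 and -0.32, where 30.0% of all tested genes were lower and 31.7% higher. The small-subunit factors NOL6, BMS1, UTP3 and DHX37 were at -0.94, -0.77, -1.29 and -0.74. The large-subunit factors NIFK, FTSJ3, URB2 and GTPBP4 were at -1.16, -1.14, -1.03 and -0.88. In snoRNP assembly, the ATPase RUVBL2 was at -0.36, SHQ1 and NAF1, which assemble H/ACA particles, at -0.57 and -0.53, and ZNHIT6, which acts on box C/D particles, at -0.42.

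The exosome, which trims the end of precursor RNA, gave one value apart from its list. EXOSC4, a subunit of its ring, was at -1.38 in SNT-8, -1.68 in SNK-10 and -1.35 in SNT-16, with -1.47 (SE 0.0728, adjusted p = 2.45e-20) on the mean response, while EXOSC9, EXOSC3 and the nuclease DIS3 were at -0.50, -0.61 and -0.33.

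On the mean response, 7 of the 114 genes were higher after icaritin. RIOK3, an atypical kinase of the late 40S precursor, was at 0.72 in SNT-8, 0.65 in SNK-10 and 0.63 in SNT-16, with 0.67 (SE 0.036, adjusted p = 3.84e-19) on the mean response. NOP53, which brings the exosome to the 60S precursor, was at 0.57 in SNT-8, 0.55 in SNK-10 and 0.49 in SNT-16, with 0.54 (SE 0.0265, adjusted p = 1.96e-20). RSL24D1, a placeholder protein of the 60S precursor, was at 0.58 in SNT-8, 0.49 in SNK-10 and 0.63 in SNT-16, with 0.57 (SE 0.0391, adjusted p = 3.53e-13). These 3 were higher in each line. EXOSC1, AFG2A, TSR2 and ZNHIT3 were higher on the mean response by 0.22, 0.31, 0.12 and 0.12 (adjusted p = 1.07e-04, 2.03e-05, 0.0269 and 0.0221).

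MYC itself was at 36.5, 28.6 and 40.7 FPKM after icaritin and 85.8, 81.6 and 80.6 FPKM after DMSO in SNT-8, at 32.4, 31.0 and 29.4 FPKM after icaritin and 77.2, 69.2 and 76.7 FPKM after DMSO in SNK-10, and at 34.2, 36.5 and 38.1 FPKM after icaritin and 81.2, 83.8 and 88.1 FPKM after DMSO in SNT-16, with a mean log2 fold change of -1.25 (SE 0.0446, adjusted p = 2.44e-17).

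**Figure D4:**
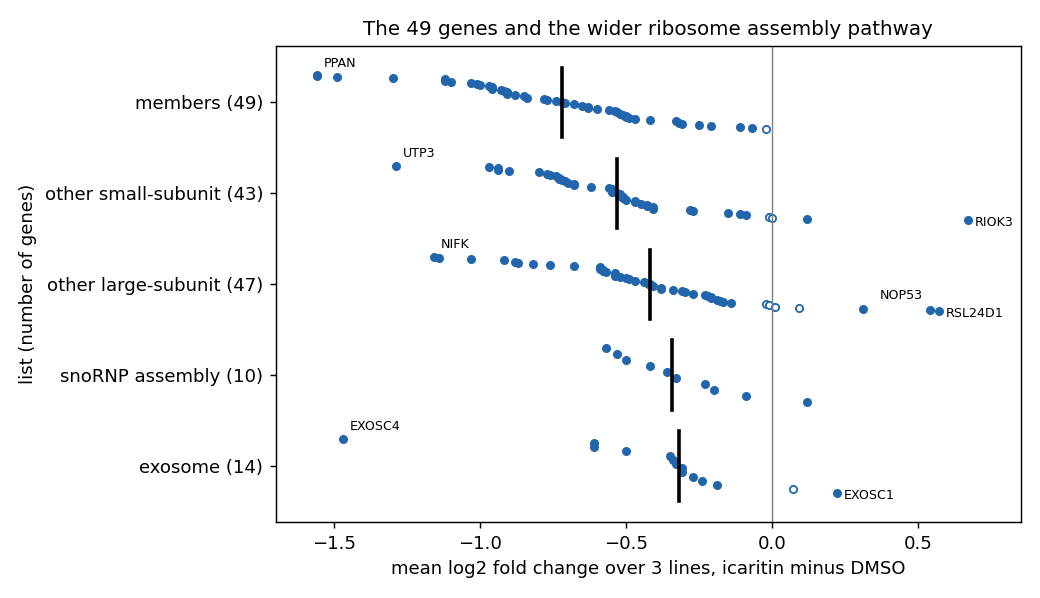
Mean log2 fold change over the 3 lines, icaritin against DMSO (x axis), of the 49 genes and of 4 further lists of ribosome assembly genes (y axis, number of genes in brackets), with a point per gene, open where the adjusted p was 0.05 or more, and a black bar at the median. The median is -0.72 for the 49 genes and between -0.53 and -0.32 for the further lists; RIOK3, NOP53 and RSL24D1 lie right of 0.

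The promoters were searched for motifs, which the choice of genes did not use. RefSeq promoters of 300 bases (250 before the annotated start and 50 after it, GRCh38.p14) were held for 42 of the 49 genes; NOP58, NOLC1, RRP12, BOP1, RRS1, DDX18 and RRP1B had none in the table. The letters CACGTG, the canonical E-box, read the same on both strands. They were found in 18 of the 42 promoters (42.9%), against 9.80% of the promoters of 11223 tested genes and 7.43% of all 27305 promoters. In the 50 bases after the start alone, 12 of 42 (28.6%) held CACGTG, against 1.11% of those of tested genes and 0.912% of all. The 12 stretches are shown here because they hold the motif past the start. Each is 30 bases cut around the motif, in the direction of the gene, with CACGTG in capitals, whose first base lies 4 to 36 bases after the start.
FBL chr19:39846356-39846385 (minus strand): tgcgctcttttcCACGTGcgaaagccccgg
NOP14 chr4:2963374-2963403 (minus strand): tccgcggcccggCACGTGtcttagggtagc
WDR43 chr2:28894658-28894687 (plus strand): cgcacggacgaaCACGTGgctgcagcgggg
UTP18 chr17:51260538-51260567 (plus strand): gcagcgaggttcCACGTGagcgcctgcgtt
BYSL chr6:41921515-41921544 (plus strand): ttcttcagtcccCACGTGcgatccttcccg
LTV1 chr6:143843354-143843383 (plus strand): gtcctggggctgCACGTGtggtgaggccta
PNO1 chr2:68157885-68157914 (plus strand): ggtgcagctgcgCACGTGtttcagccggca
NOP2 chr12:6568242-6568271 (minus strand): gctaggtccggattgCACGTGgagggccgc
PES1 chr22:30591880-30591909 (minus strand): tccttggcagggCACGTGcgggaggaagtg
GNL2 chr1:37595917-37595946 (minus strand): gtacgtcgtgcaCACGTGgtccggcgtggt
NOC3L chr10:94362903-94362932 (minus strand): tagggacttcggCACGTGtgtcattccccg
MRTO4 chr1:19251807-19251836 (plus strand): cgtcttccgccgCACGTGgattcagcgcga

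These 12 genes are 6 small-subunit factors, 5 large-subunit factors and 1 snoRNP protein. They include FBL, which passed in no single line in edgeR's test, and BYSL and NOP2, which were at -1.12 and -1.12 on the mean response. Their median log2 fold change was -0.58 in SNT-8, -0.65 in SNK-10 and -0.60 in SNT-16. The 18 genes with CACGTG anywhere in the window had medians of -0.63, -0.65 and -0.59 in these lines, against -0.92, -0.93 and -0.83 for the 24 genes without it. The median was lower without the motif in each line, a difference that was not tested. Genes without a RefSeq promoter were in neither group. Over all tested genes, the median of the mean response was 0.00 for 1100 genes with CACGTG and 0.02 for 10123 without. A match is a description of letters; binding was not measured.

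A second motif, CCGGAAG or CTTCCGG on the other strand, the core bound by ETS factors, was found in 15 of the 42 promoters (35.7%), against 18.8% for tested genes and 10.7% for all promoters. TATAAA was found in 4.76% of the 42 promoters and 6.09% of those of tested genes, and TGACGTCA in 2.38% and 3.17%. WDR3 and NOP16, the strongest falls of the small- and large-subunit factors by p, held no CACGTG in the window. Their 60 bases upstream of the start are shown with the ETS core of either strand in capitals, since it occurs as a pair, overlapping in NOP16.
WDR3 chr1:117929679-117929738 (plus strand): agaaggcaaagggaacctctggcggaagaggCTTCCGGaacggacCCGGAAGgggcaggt
NOP16 chr5:176388599-176388658 (minus strand): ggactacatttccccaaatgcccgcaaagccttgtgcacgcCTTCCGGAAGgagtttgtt

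Some of the genes host small nucleolar RNAs in their introns. By the RefSeq annotation, 9 of the 49 genes (18.4%) hold an annotated snoRNA gene within their bounds, against 3.33% of 14348 tested genes with an annotation entry. They are DKC1, GNL3, NCL, NOP56, NOP58, PPAN, TSR1, UTP20 and WDR43. GNL3 and NOP56 hold 5 snoRNA genes each, NOP58 holds 4, NCL and WDR43 hold 3. All 9 host genes were lower in each line, where 14.3% of all tested genes were. Of the other 40 genes, 37, 36 and 37 were lower in SNT-8, SNK-10 and SNT-16. Most of the set was thus lower with or without a snoRNA gene. The median mean response was -0.88 for the host genes and -0.72 for the other 40, a difference that was not tested. SNORD86, within NOP56, was the only one of these snoRNA genes tested, with a mean of 6.27 CPM. It was lower in each line, at -0.75 in SNT-8, -0.62 in SNK-10 and -0.78 in SNT-16 (adjusted p = 0.00241, 0.0281 and 0.00119), and its reads may be split with those of NOP56.

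In the annotation, 15 of the 49 genes overlap another tested gene, and the strand of the counting is not given in the sources used here, so part of their reads could belong to the neighbour. In 7 of these cases the ribosome biogenesis gene held over 5 times the CPM of its neighbour. The nearest neighbours in level, beside PPAN-P2RY11, were LGALS8 at HEATR1 (191 CPM, against 315 CPM for HEATR1), LDB1 at PPRC1 (91.2 CPM, against 146 CPM for PPRC1) and MED20 at BYSL (25.7 CPM, against 40.1 CPM for BYSL). LGALS8, LDB1 and MED20 were higher after icaritin, by 0.14, 0.19 and 0.21 on the mean response (adjusted p = 7.64e-05, 1.67e-04 and 4.87e-04). LDB1 differed between lines, with 0.41 in SNT-8, -0.18 in SNK-10 and 0.34 in SNT-16, each past the threshold (adjusted p = 8.82e-06, 0.041 and 1.34e-04). Of the 15 overlapping genes, 7 were higher (background 31.7%) and 5 lower (background 30.0%) on the mean response. SAMD11 at NOC2L and SRR at TSR1 were among the lower ones, at -0.60 and -0.20 (adjusted p = 1.53e-11 and 3.72e-05).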

How the data were processed

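Per the labels' protocols, total RNA was extracted with Trizol and 1 µg went into MGIEasy libraries. Bowtie2 and HISAT are named, without a version, in the submitters' processing notes; the genome build, the counting tool and the strand setting are given in none of the sources used here. The authors deposited an expected count and an FPKM value per NCBI Gene ID, per the file headers. A gene missing from a table was taken as 0. Symbols came from RefSeq (GRCh38.p14), which was used for names, neighbours and promoters; 21559 of 21662 IDs matched by ID and 7 by transcript.

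Expected counts were rounded and fitted with edgeR 4.0.16 in R 4.3.3. The fit used filterByExpr with a minimum count of 10 and a minimum total of 15, TMM scaling and a robust quasi-likelihood model of 6 group means over 18 libraries, with 12 residual degrees of freedom and a biological coefficient of variation of 4.4%. Tests were two-sided, with Benjamini-Hochberg adjustment over 14396 genes and a threshold of 0.05. A fold change is log2 of icaritin over DMSO, and its standard error (SE) is its size over the square root of F. The mean response averages the 3 lines. On data simulated from these libraries, 93% of genes changed by 0.5 and 99% of genes changed by 1 (log2) were called on the mean response. In SNT-8, SNK-10 and SNT-16 alone, 77%, 80% and 73% of genes changed by 0.5 and 95%, 100% and 95% of genes changed by 1 were called. Changes were equal in all lines there, so recovery of differences between lines was not simulated. Every simulated gene had the same coefficient of variation of 4.4%, and genes of very low level were not changed. These shares may thus be too high for genes of wider spread or lower level. Replicates of a group differed by more than sampling noise (chi-square per degree of freedom 1.37 to 8.18), so each was counted as 1 sample.

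The 49 genes, their classes, the further lists and the markers were chosen with earlier results of these data known. In each class, values per library are given for the 3 genes with the smallest p of the mean response (2 in the class of other proteins). They are also given for genes that failed in any line, the 5 smallest interaction p-values, the 3 highest and 3 lowest levels and the 3 largest DMSO differences of SNK-10. Further lists give up to 4 genes by p and each gene that passed in the other direction. Alternatives were DESeq2 1.42.0 and its size factors, no or a stricter filter on low counts (50 counts in 3 libraries), limma 3.58.1 on log2 FPKM with a pseudocount of 1 or 0.1, no mitochondrial genes, fits of a line alone, the replicate number as a block, and each library left out.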

Additional observations from a re-analysis of the deposited data

Results flagged for a closer look

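For 9 of the 49 genes the icaritin response differed between the lines by edgeR's interaction test, adjusted over all genes. The adjusted p was 5.40e-06 for NOP56 and 0.00137 for DDX10, and both passed in all 26 alternatives. The value for NOP58 was 0.00916, and it was lost without SNK-10 icaritin replicate 1 (adjusted p = 0.0587). That for BOP1 was 0.0151, lost without SNK-10 DMSO replicate 1 (0.0576), SNK-10 icaritin replicate 2 (0.0536) or SNT-16 DMSO replicate 2 (0.0556), and with limma on FPKM (0.129 and 0.130).

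For RRP9 the adjusted p was 0.0273. It was lost without SNK-10 DMSO replicates 2 (0.0820) or 3 (0.0508), SNK-10 icaritin replicates 1 (0.0761) or 2 (0.113) or SNT-16 icaritin replicate 2 (0.0508), and with limma (0.149 and 0.153). RRS1 had 0.0311, lost without SNK-10 DMSO replicates 2 (0.0719) or 3 (0.0589), SNK-10 icaritin replicates 1 (0.104) or 2 (0.0909), SNT-16 DMSO replicate 2 (0.0964) or SNT-16 icaritin replicates 1 (0.0576), 2 (0.0665) or 3 (0.0895). NOB1 had 0.0327, lost without SNK-10 DMSO replicates 2 (0.0528) or 3 (0.0661), SNT-16 DMSO replicates 1 (0.0739), 2 (0.0714) or 3 (0.0613) or SNT-16 icaritin replicate 1 (0.162). The NOB1 call was also lost with the replicate number as a block (0.0618).

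The values for WDR75 (0.0434) and DKC1 (0.0491) lay close to the threshold, and 8 and 9 of their 26 alternatives passed. For WDR75, 13 of the 18 fits without 1 library did not pass, with adjusted p-values over the 18 fits from 0.0216 to 0.113. These were the fits without any DMSO library of the 3 lines, or without icaritin replicates 1 or 2 of SNK-10 or of SNT-16. For DKC1, 11 of the 18 did not pass, over a range from 0.0264 to 0.139. These left out SNT-8 DMSO replicates 1 or 3, SNK-10 DMSO replicates 1 or 2, SNK-10 icaritin replicates 1 or 2, any DMSO library of SNT-16, or SNT-16 icaritin replicates 2 or 3.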

How the results depend on the processing

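No fold change of the 49 genes that passed the threshold changed direction under any alternative run. Of those that had not passed, NOB1 in SNK-10 changed sign in 6 of 27 alternatives, and NPM3 in 4 of 27 in SNT-16 (-0.183 to 0.157) and 5 of 26 on the mean response (-0.070 to 0.044), none past the threshold. The counts of lower genes kept within 1.5 times of the reported ones in every class and line. Without 1 library they were 45 to 46 in SNT-8, 44 to 45 in SNK-10, 45 to 47 in SNT-16 and 47 to 48 on the mean response. Medians moved by over 1 SD of the replicates in some fits; the cause was not tested. With limma on log2(FPKM + 1), the median was -0.702 for all 49 genes, -0.595 for small-subunit, -0.846 for large-subunit and -0.843 for other proteins in SNT-8. In SNT-16 it was -0.617 for all, -0.563 for small-subunit, -0.641 for snoRNP and -0.848 for other proteins. With log2(FPKM + 0.1), it was -0.719 for all in SNT-8 and -0.692 for small-subunit factors in SNK-10.

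Without 1 library, the median of all 49 genes ranged from -0.779 to -0.719 in SNT-8, -0.720 to -0.662 in SNK-10 and -0.702 to -0.631 in SNT-16. That of large-subunit factors in SNT-8 ranged from -0.931 to -0.848, and that of other proteins in SNT-16 from -0.904 to -0.841. Genes called ranged from 4 to 12 in the interaction test, 3 to 6 for the response in SNK-10 minus SNT-8, 5 to 13 for SNK-10 minus SNT-16, 0 to 1 for SNT-8 minus SNT-16, and 2 to 7 for DMSO levels of SNT-8 minus SNT-16. The response of SNT-8 minus SNT-16 gave 1 gene with DESeq2 and 1 without the filter on low counts, against 0 reported. The interaction count was 4 or 5 without SNK-10 DMSO replicates 2 or 3, SNK-10 icaritin replicates 1 or 2, SNT-16 DMSO replicate 2 or SNT-16 icaritin replicate 2.

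Same-numbered icaritin and DMSO libraries did not deviate together (r from -0.123 to 0.037 over 9 pairs). Libraries of unlike number spanned r from -0.131 to 0.122. With so few libraries a group, this check cannot exclude pairing, and the labels do not state it. With the replicate block, 46, 45 and 47 genes were lower in SNT-8, SNK-10 and SNT-16, with NPM1 passing in SNT-16 (adjusted p = 0.0378). In that fit 6 genes passed the interaction test, against 1729 of all 14396 genes; NOB1 (adjusted p = 0.0618), WDR75 (0.0895) and DKC1 (0.0978) did not. NPM3 held the fewest counts of the set (a mean of 13.9 CPM), and its SE was 0.149 to 0.162 in a line. Its response was thus not told apart from 0, and whether depth is the reason was not tested.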
